A study of Mus musculus with 15 samples.

Results

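The SLC25 carriers, the transport proteins of the inner mitochondrial membrane, were followed at the mRNA level in mouse aorta. Members were all genes whose symbol is Slc25a followed by a number. The table of 34714 genes held 47 of them, and the 39 that reached a value of 1 in 5 or more of the 15 libraries are described. The other 8 stayed under that filter. Each of 3 groups had 5 libraries. AngII+E1 mice received angiotensin II (AngII), a vasoconstrictor peptide, infused at 750 ng/kg/min, and were injected intraperitoneally with 2 µg/kg/day of resolvin E1 (RvE1), a lipid mediator of the resolution of inflammation. AngII mice received the same infusion without RvE1, and Sham mice were the controls. All mice are labelled wild type (WT), and the labels used here give no strain, sex, age or length of infusion. The study asked how RvE1 acts on angiotensin II hypertension and vascular remodelling.

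SLC25 carriers exchange metabolites between cytosol and mitochondrial matrix. They bring in ADP, phosphate, amino acids and cofactors, and send out ATP, citrate and aspartate. Most are built from 3 repeated units of membrane helices, and most are made in the cytosol and inserted into the inner membrane by the TIM22 complex. In an aorta with its surrounding fat, both the smooth muscle of the wall and the mitochondria-rich brown adipocytes around it express them.

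The upstream regions of Slc25a34 and Slc25a43 are shown because these were the members that passed the test in any comparison. Both are from RefSeq on GRCm38.p6, read 5′ to 3′ on the gene's strand and ending at the base before the annotated gene. In Slc25a34 the capitals mark, in order, a nuclear receptor element (AAGGTCA on the other strand), a GC box (GGGCGG on the other strand) and a CCAAT box (CCAAT on the other strand). In Slc25a43 no letters are in capitals, because none of the 8 motifs searched was found.
Slc25a34 at chr4:141623892-141624084, minus strand: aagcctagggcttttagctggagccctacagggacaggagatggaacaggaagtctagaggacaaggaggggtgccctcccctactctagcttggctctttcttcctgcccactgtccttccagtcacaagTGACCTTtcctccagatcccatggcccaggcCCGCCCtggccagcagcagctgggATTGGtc
Slc25a43 at chrX:36743382-36743569, plus strand: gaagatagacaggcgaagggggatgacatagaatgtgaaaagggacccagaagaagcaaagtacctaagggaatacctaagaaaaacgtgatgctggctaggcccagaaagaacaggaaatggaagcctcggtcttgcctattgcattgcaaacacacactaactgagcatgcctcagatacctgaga

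The motifs were searched on both strands of the 250 bases before each RefSeq start. The table gave 38 such windows for 30 of the 39 members, among 32851 windows of all genes, coding and noncoding. The nuclear receptor element AAGGTCA stood in 2.63% of member windows, that of Slc25a34 alone, and in 4.08% of all windows. The GC box GGGCGG stood in 76.3% of member windows, against 32.7% of all windows, and CCAAT in 47.4% against 33.9%. The E-box CACGTG was found in 15.8% of member windows and 6.02% of all windows, the ETS letters CCGGAAG in 13.2% and 6.91%, and the cAMP response element TGACGTCA in 5.26% and 1.55%. The CArG box, the element of smooth muscle genes, was found in 5.26% of member windows (those of Slc25a23) and 1.47% of all windows, and the MEF2 site in 0 member windows and 2.92% of all windows. The members are coding genes that passed the level filter, while the windows of all genes were not limited in this way. The shares therefore compare unlike sets of genes. These are matches of letters in a window and do not show binding.

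The libraries differed in cell content, which bears on every result below. Values are taken to be FPKM, a fragment level corrected for gene length and depth. Read depth is unknown, and no counting interval can be given. The columns summed to 385800 to 514300, and 11466 to 12996 genes reached 1 FPKM. Contractile smooth muscle markers, which define the labelled aorta, were above 0 in all 15 libraries. Brown fat markers were also above 0 in all libraries, and their summed level ran from 2884 to 8402 FPKM in AngII+E1, from 898.3 to 9142 in AngII and from 2177 to 12410 in Sham libraries. The summed level of 9 lymphocyte markers was 7.84 to 9.88 FPKM in AngII+E1 libraries, 12.9, 6.25, 844.3, 280.0 and 1297 FPKM in AngII libraries 1 to 5 and 3.80 to 65.5 FPKM in Sham libraries. AngII libraries 3, 4 and 5 thus stood apart from the other 12. Red cell markers, 5 in number, summed to 28050 to 78370 FPKM in AngII+E1, 7580 to 44170 in AngII and 5346 to 19670 in Sham libraries. In such bulk tissue, fewer cells of a type and less RNA per cell cannot be told apart. Nothing in the labels ties each library to its own mouse, so the tests gauge only how these samples scatter, which may be technical.

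The 39 carriers spanned over 2 orders of magnitude in level. Over all 15 libraries, 6 members averaged 100 FPKM or more, 15 lay between 10 and 100, and 18 lay under 10. The top 6 were Slc25a1 (307.3 FPKM), Slc25a3 (252.2), Slc25a5 (247.2), Slc25a4 (234.1), Slc25a39 (206.1) and Slc25a20 (151.6), and they held 66.7% to 73.3% of the members' summed level in every library. Neighbours in this order overlapped in their library ranges, for example 193.3 to 298.7 FPKM for Slc25a3 and 164.9 to 359.1 for Slc25a5. The described members together took 0.298% to 0.612% of a library's FPKM.

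**Figure D1:**
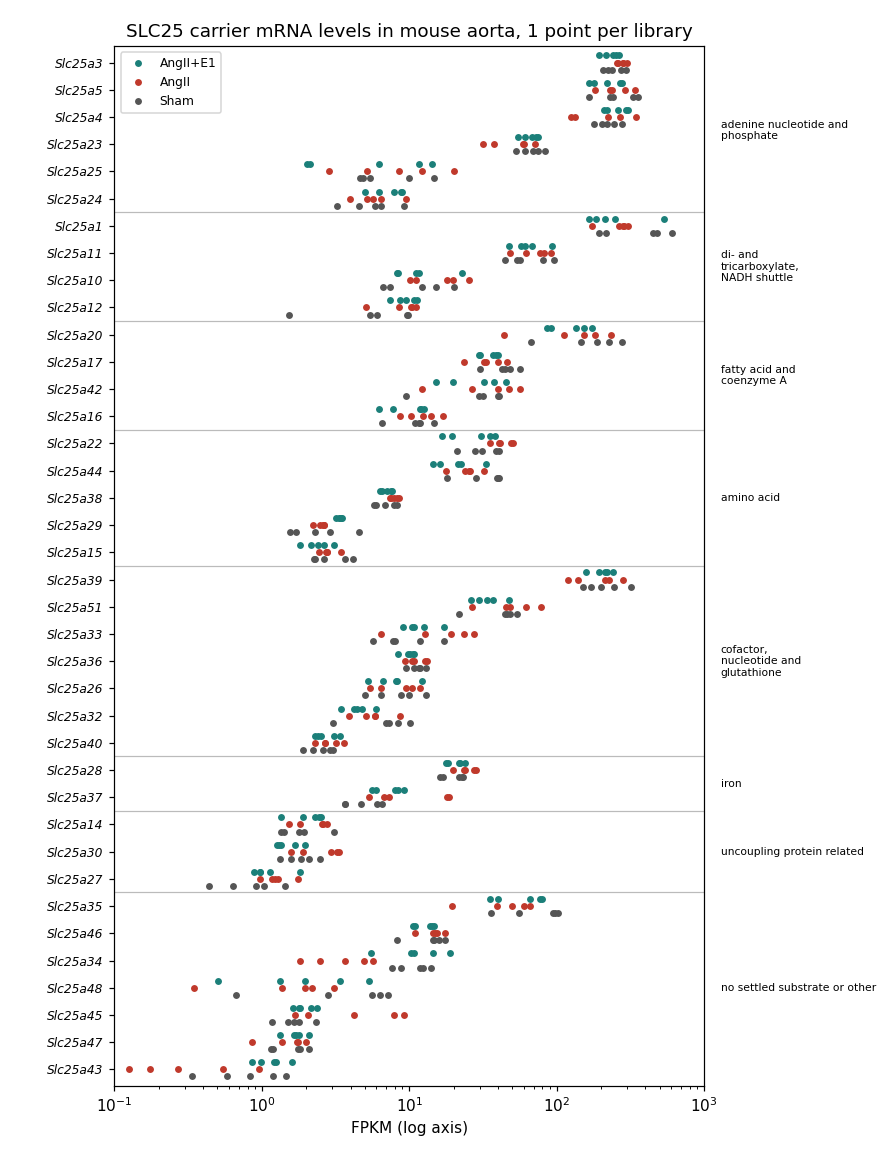
Level of 38 described SLC25 carriers in FPKM on a log axis, 1 point per library, grouped by role and coloured by group (AngII+E1, AngII, Sham). The 5 AngII points of Slc25a34 lie at 1.81 to 5.71 FPKM, left of all 5 Sham points at 7.59 to 14.0, while the points of most other carriers are mixed.

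Of the 8 members under the filter, Slc25a41 was listed at 0 in every library. Slc25a2, Slc25a13, Slc25a18, Slc25a21, Slc25a31 and Slc25a54 did not reach 1 FPKM in any library. Slc25a53 reached 1 in 2 libraries, AngII library 3 (2.05 FPKM) and AngII library 5 (1.57 FPKM), and is the member nearest below the filter. Slc25a43, with 5 libraries at 1 or more, none of them an AngII library, is the member just inside it.

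The first question was which carriers differed after angiotensin II infusion. Among the 39 described carriers none was higher and 1, Slc25a34, was lower in AngII than in Sham aortas. In the same fit, 3.17% of all 12603 genes tested passed, 2.36% as higher and 0.809% as lower. The median log2 difference of the carriers was 0.07, beside 0.11 for all genes, and 22 of the 39 differences were positive, beside 8127 of 12603 for all genes. When each library was rescaled by its median ratio to the geometric mean library, these medians were -0.09 and -0.03, and all-gene calls were 248 higher and 336 lower in place of 298 and 102. At an unadjusted p under 0.05 there were 4 carriers, where 26.2% of all genes reached that level.

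RvE1 given with the infusion was compared with the infusion alone. Slc25a34 and Slc25a43 were higher in AngII+E1 than in AngII aortas, and no carrier was lower. Slc25a43 met the filter only through AngII+E1 and Sham libraries, and with no filter it was not called (limma adjusted p = 0.0825). In the main fit 8.52% of all genes passed, 4.21% as higher and 4.31% as lower. The carriers' median log2 difference was -0.14, beside -0.11 for all genes, and 26 of the 39 differences were negative, beside 8082 of 12603 for all genes. After the same rescaling the medians were -0.02 and -0.01, and all-gene calls were 854 higher and 467 lower in place of 531 and 543. At an unadjusted p under 0.05 there were 5 carriers, 2 higher and 3 lower, where 29.0% of all genes reached that level, 9.85% as higher and 19.1% as lower. The AngII libraries enter both of these comparisons, so a low or high AngII value moves both.

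In AngII+E1 against Sham aortas no carrier passed by limma, where 3 genes of the whole table (0.0238%) did. At an unadjusted p under 0.05 there was 1 carrier, Slc25a44, lower in AngII+E1, and 6.69% of all genes. Intervals were wide, for example -1.29 to 0.23 around a log2 difference of -0.53 for Slc25a1, so this comparison does not show that carrier levels were alike in both groups.

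**Figure D2:**
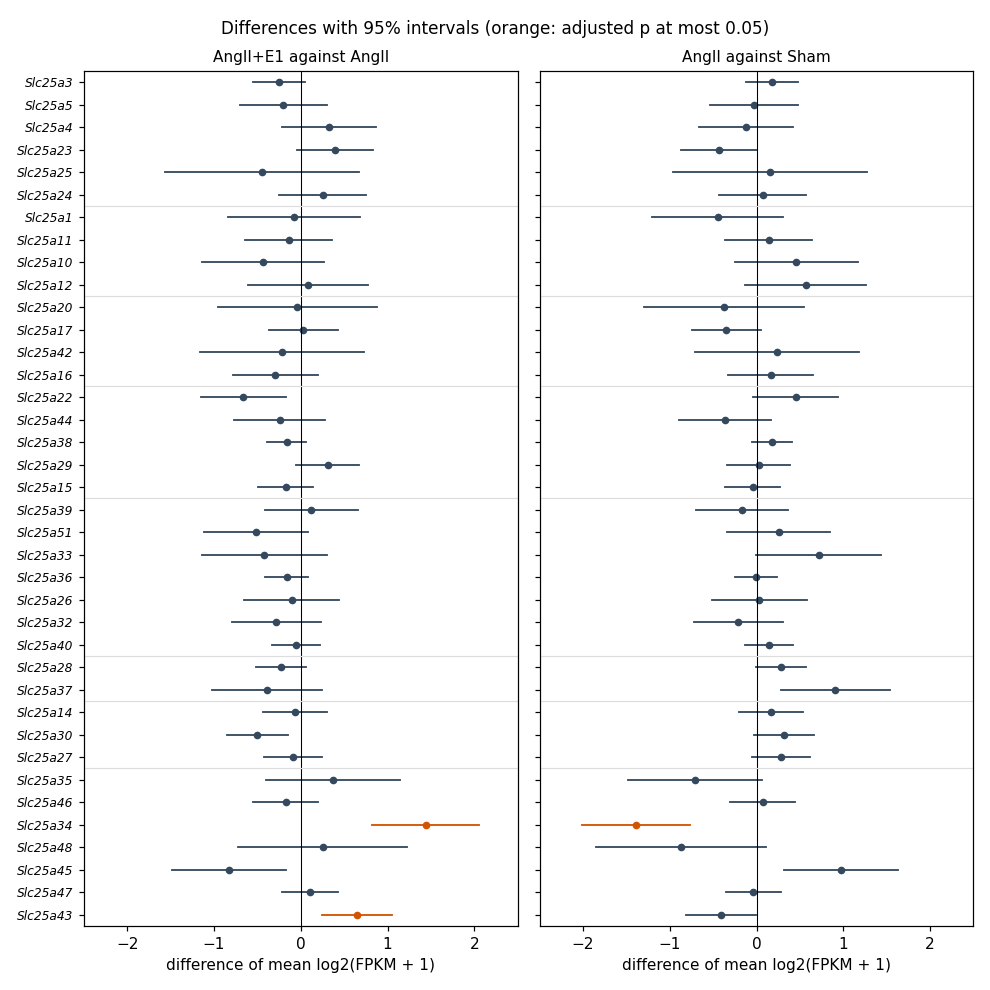
Difference of mean log2(FPKM + 1) with its 95% interval for 38 carriers in the comparisons AngII+E1 against AngII (left) and AngII against Sham (right), with carriers at an adjusted p of at most 0.05 in orange. Slc25a34 is at 1.44 on the left and -1.39 on the right, Slc25a43 is at 0.65 on the left, and most intervals of the other carriers cross 0.

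Slc25a34 (chromosome 4, 141618819 to 141623891) has no settled substrate and is related in sequence to Slc25a35. Its level was 18.8, 5.50, 10.3, 10.8 and 14.5 FPKM in AngII+E1 libraries 1 to 5. In AngII libraries 1 to 5 it was 5.71, 3.66, 1.81, 4.94 and 2.47 FPKM. In Sham libraries 1 to 5 it was 11.9, 14.0, 8.85, 7.59 and 12.5 FPKM. All AngII libraries lay below all Sham libraries, and 4 of 5 AngII+E1 libraries lay above all AngII libraries, AngII+E1 library 2 being the exception. Means with SD over 5 libraries were 12.0 ± 4.99 FPKM in AngII+E1, 3.72 ± 1.63 FPKM in AngII and 10.96 ± 2.65 FPKM in Sham aortas. AngII was lower than Sham with a difference in mean log2 of -1.39, SE 0.29 and 95% interval -2.01 to -0.77 (limma adjusted p = 0.0263). AngII+E1 was higher than AngII by 1.44 (SE 0.29, 95% interval 0.82 to 2.06, limma adjusted p = 0.0175). No overlap between groups, with AngII lower, was found for 0.778% of all genes.

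Smooth muscle, macrophage, adipocyte and brown fat markers also passed in the comparisons where Slc25a34 did. Of 11 contractile smooth muscle markers, 3 were lower in AngII than in Sham and 10 were higher in AngII+E1 than in AngII. Their summed level was 5509 to 9916 FPKM in AngII+E1, 1223 to 3479 in AngII and 1794 to 12420 in Sham libraries, with no marker at 0. Of 7 macrophage markers, 3 were higher in AngII than in Sham and 5 were lower in AngII+E1 than in AngII, with summed levels of 78.0 to 97.7 FPKM in AngII+E1, 82.8 to 620.0 in AngII and 66.7 to 89.2 in Sham libraries and no marker at 0. Of 8 brown fat markers, only Prdm16 passed. It was lower in AngII than in Sham, at -0.84 (limma adjusted p = 0.0263), and higher in AngII+E1 than in AngII, at 1.14 (limma adjusted p = 0.0108). Of 10 adipocyte markers, 1 was higher in AngII than in Sham and 3 were lower in AngII+E1 than in AngII. Of 6 endothelial markers, 1 was lower in AngII+E1 than in AngII. None of the 8 lymphocyte markers tested passed. Among AngII libraries, 3 and 5 were lowest for Slc25a34 and had the lowest smooth muscle sums (1548 and 1223 FPKM) and the highest lymphocyte and macrophage sums. AngII library 1, the highest of its group for Slc25a34, had the next lowest smooth muscle sum (2027 FPKM). Sham library 3 had a smooth muscle sum of 1794 FPKM, below those of AngII libraries 1, 2 and 4, and its Slc25a34 level of 8.85 FPKM was above every AngII library. With the smooth muscle list as a covariate the difference was -0.94 (limma adjusted p = 0.217) for AngII against Sham and 0.81 (limma adjusted p = 0.548) for AngII+E1 against AngII. All-gene calls in this fit were 58 higher and 41 lower, and 0 higher and 1 lower, in these comparisons. The list's mean log2 level was 7.03 to 7.76 in AngII+E1 and 5.07 to 6.48 in AngII libraries, without overlap. This fit therefore cannot separate RvE1 treatment from smooth muscle content. With the adipocyte list the differences were -1.285 and 1.28 (limma adjusted p = 0.044 and 0.11). With the lymphocyte list they were -1.075 and 1.049 (limma adjusted p = 0.213 and 0.322). All-gene calls in the adipocyte fit were 417 higher and 205 lower, and 0 higher and 1 lower, in these comparisons. Those in the lymphocyte fit were 45 higher and 11 lower, and 0 higher and 5 lower. Brown fat and striated muscle covariates kept both Slc25a34 calls. Without AngII libraries 3, 4 and 5 the differences were -1.07 and 1.12 (limma adjusted p = 0.468 and 0.33), from 2 AngII libraries. The call for AngII against Sham was also lost without Sham library 2 or 5 or AngII library 3 or 5 (differences -1.30, -1.33, -1.22 and -1.29, limma adjusted p = 0.0708, 0.0715, 0.0604 and 0.0765). That for AngII+E1 against AngII was lost without AngII library 5 or AngII+E1 library 5 (1.35 in both, limma adjusted p = 0.0579 and 0.0552). The part of these cell types in the result was not tested beyond these fits.

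Slc25a43 (chromosome X, 36743570 to 36777307), another carrier with no settled substrate, had low values. It was at 1.21, 0.864, 0.986, 1.24 and 1.61 FPKM in AngII+E1 libraries 1 to 5, and at 0.173, 0.542, 0.956, 0.268 and 0.126 FPKM in AngII libraries 1 to 5. Sham libraries 1 to 5 had 1.18, 0.577, 0.338, 0.827 and 1.46 FPKM. AngII library 3 reached into the AngII+E1 range, and the Sham libraries spanned most of both. Slc25a43 met the filter through AngII+E1 libraries 1, 4 and 5 and Sham libraries 1 and 5, and no AngII library reached 1 FPKM. Its place among the genes tested thus came only from the groups where it was higher. With no filter the call below was lost (limma adjusted p = 0.0825). AngII+E1 was higher than AngII with a difference in mean log2 of 0.65 and SE 0.19 (limma adjusted p = 0.0465), a scale on which differences of such low values are pulled toward 0. The call was lost in 10 of the 15 fits that left out 1 library (Sham library 2 or 4, AngII library 1, 4 or 5, or any AngII+E1 library), where the difference was 0.57 to 0.70 (limma adjusted p = 0.0504 to 0.133), and with the smooth muscle covariate the difference was 0.12 (limma adjusted p = 0.827). That covariate fit called no gene of the whole table higher in AngII+E1 than in AngII. AngII against Sham was at -0.41 (limma adjusted p = 0.184).

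**Figure D3:**
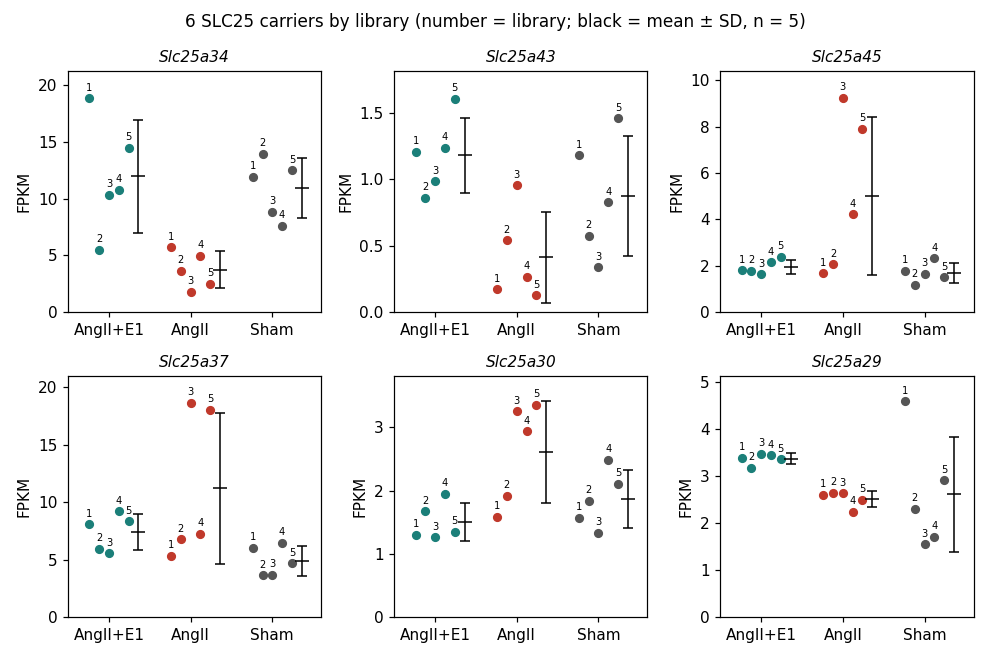
FPKM of 6 SLC25 carriers in AngII+E1, AngII and Sham libraries, with the library number above each point and the mean ± SD (n = 5) in black. Slc25a45 and Slc25a37 are highest in AngII libraries 3 and 5, where Slc25a34 is lowest, and Slc25a29 has 5 AngII+E1 points above all 5 AngII points.

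The adenine nucleotide and phosphate carriers supply the ATP synthase and export its product, and none of the 6 described passed in any comparison. Slc25a3, the phosphate carrier, was at 265.1, 252.1, 239.5, 193.3 and 217.9 FPKM in AngII+E1, at 258.2, 298.7, 280.6, 283.0 and 262.7 in AngII and at 237.3, 272.7, 294.0, 205.2 and 223.4 in Sham libraries 1 to 5. Its highest level was 1.37 times the lowest in AngII+E1, 1.16 times in AngII and 1.43 times in Sham libraries. Slc25a4, the ADP/ATP carrier ANT1 of heart and muscle, was at 294.0, 208.8, 306.5, 218.7 and 262.1 FPKM in AngII+E1, at 222.4, 344.8, 126.1, 271.0 and 133.6 in AngII and at 203.7, 218.6, 279.3, 179.0 and 243.5 in Sham libraries. Slc25a5, the widely expressed ANT2, was at 221.0, 268.5, 275.7, 164.9 and 178.8 FPKM in AngII+E1, at 340.0, 289.4, 182.0, 229.2 and 236.1 in AngII and at 164.9, 328.5, 359.1, 240.6 and 228.9 in Sham libraries. AngII libraries 3 and 5 were the low ones of their group for Slc25a4, and library 3 for Slc25a5, which also has a processed pseudogene in the annotation that could share its reads.

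The ratio of Slc25a4 to Slc25a5 averaged 1.202 ± 0.27 in AngII+E1, 0.858 ± 0.30 in AngII and 0.897 ± 0.24 in Sham libraries (SD, n = 5 each). The higher ratio in AngII+E1 than in AngII did not pass an exact two-sided permutation test (p = 0.0714, adjusted p = 0.458 over 21 ratio tests). The smallest p that 5 against 5 libraries allow is 0.00794. A lone ratio at that p could not pass after adjustment over 21 tests. The adjusted test therefore cannot decide whether a lone ratio differed. Of the calcium-dependent ATP-Mg/phosphate carriers, Slc25a23 averaged 66.2 FPKM in AngII+E1, 52.0 in AngII and 68.1 in Sham libraries. Slc25a24 averaged 7.37, 6.13 and 5.87 FPKM in these groups. Slc25a25 ranged 7.06-fold among AngII+E1 libraries, 7.01-fold among AngII and 3.21-fold among Sham libraries, so libraries of 1 group differed more than the groups did.

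The di- and tricarboxylate carriers move citrate, malate, oxoglutarate, aspartate and glutamate, and none of the 4 described passed in any comparison. Slc25a1, the citrate carrier that supplies fatty acid synthesis, was at 250.9, 531.6, 214.4, 185.8 and 164.9 FPKM in AngII+E1, at 288.8, 266.6, 173.6, 284.0 and 305.1 in AngII and at 217.2, 481.0, 604.3, 448.3 and 193.8 in Sham libraries 1 to 5. Sham libraries 2, 3 and 4 and AngII+E1 library 2 were the high ones. AngII against Sham was at -0.45 on the log2 scale (95% interval -1.21 to 0.31, limma adjusted p = 0.446).

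Slc25a11, the oxoglutarate/malate carrier of the malate-aspartate shuttle, was at 68.5, 61.0, 93.4, 47.3 and 57.7 FPKM in AngII+E1, at 92.1, 81.8, 48.5, 77.4 and 61.7 in AngII and at 44.8, 81.2, 96.8, 56.5 and 53.6 in Sham libraries. Slc25a12, the aspartate/glutamate carrier aralar of excitable tissue and muscle, was at 11.2, 7.36, 9.55, 10.8 and 8.65 FPKM in AngII+E1, at 5.09, 11.1, 10.3, 10.47 and 8.59 in AngII and at 9.81, 6.03, 1.52, 5.41 and 9.60 in Sham libraries. Sham library 3 was the low one among Sham and library 1 among AngII libraries. Slc25a13, citrin, the liver counterpart of aralar, stayed under 1 FPKM, with 0.372, 0.0656, 0.226, 0.198 and 0.274 in AngII+E1, 0.0845, 0.724, 0.644, 0.243 and 0.351 in AngII and 0.678, 0.203, 0.139, 0.118 and 0.219 in Sham libraries. Slc25a10, the dicarboxylate carrier, averaged 12.4 ± 5.94 FPKM in AngII+E1, 17.0 ± 6.36 in AngII and 12.3 ± 5.64 in Sham libraries (SD, n = 5 each), and the groups overlapped.

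The fatty acid and coenzyme A carriers had 4 described members and no call. Slc25a20, the carnitine/acylcarnitine carrier of fatty acid oxidation, was at 136.3, 153.4, 173.5, 85.5 and 91.3 FPKM in AngII+E1, at 232.8, 183.1, 43.9, 153.9 and 111.6 in AngII and at 67.5, 228.2, 279.5, 187.6 and 146.4 in Sham libraries. AngII library 3 and Sham library 1 were the low libraries of their groups, as they were for the brown fat list (898.3 and 2177 FPKM summed). Slc25a42 and Slc25a16, linked to coenzyme A, averaged 30.1 and 10.1 FPKM in AngII+E1, 36.7 and 12.5 in AngII and 30.5 and 11.1 in Sham libraries. Slc25a17, which sits in peroxisomes, averaged 35.2, 35.03 and 44.6 FPKM in these groups.

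Among the 5 amino acid carriers described, none passed. AngII+E1 and AngII libraries overlapped for all of them except Slc25a29. Slc25a29 carries basic amino acids. It lay between 3.18 and 3.48 FPKM in AngII+E1 and between 2.24 and 2.65 FPKM in AngII libraries, the narrowest AngII+E1 range of any carrier, while Sham libraries ran from 1.55 to 4.59 FPKM. The log2 difference of AngII+E1 from AngII was 0.31 (limma adjusted p = 0.239). A separation with AngII+E1 higher was found for 1 of the 39 carriers and for 5.87% of all genes, so it was not more common among carriers. Slc25a22, a glutamate carrier, averaged 28.1 ± 9.55 FPKM in AngII+E1, 43.3 ± 6.24 in AngII and 31.96 ± 8.09 in Sham libraries, with a log2 difference of -0.66 between AngII+E1 and AngII (limma adjusted p = 0.0789). Slc25a44, which brings branched-chain amino acids into brown fat mitochondria, averaged 21.5 ± 7.31 FPKM in AngII+E1, 25.0 ± 5.12 in AngII and 33.3 ± 9.95 in Sham libraries, and AngII+E1 differed from Sham by -0.61 (limma adjusted p = 0.67). Slc25a38, the glycine carrier of haem synthesis, varied 1.15-fold among AngII libraries, the least of the described carriers in that group. Slc25a15, the ornithine carrier, averaged 2.42, 2.84 and 3.004 FPKM in AngII+E1, AngII and Sham libraries.

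None of the 8 cofactor, nucleotide and glutathione carriers passed. Slc25a39, which imports glutathione, averaged 205.2 ± 31.2 FPKM in AngII+E1, 196.1 ± 67.2 in AngII and 217.1 ± 66.3 in Sham libraries. Its relative Slc25a40 averaged 2.74, 2.89 and 2.53 FPKM in the same groups. Slc25a51, the NAD+ carrier, averaged 34.9 ± 8.29 FPKM in AngII+E1, 52.3 ± 19.5 in AngII and 42.9 ± 12.3 in Sham libraries. Slc25a33, a pyrimidine nucleotide carrier, averaged 12.0 ± 3.21, 17.9 ± 8.45 and 10.1 ± 4.55 FPKM in these groups (SD, n = 5 each). Among AngII libraries both were highest in library 1 and lowest in library 3. Slc25a36, the other pyrimidine nucleotide carrier, varied least among Sham libraries (1.35-fold). The S-adenosylmethionine carrier Slc25a26 and the folate carrier Slc25a32 overlapped between all groups.

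The mitoferrins Slc25a28 and Slc25a37 bring iron into the matrix for haem and iron-sulfur clusters, and Slc25a37 is the one of red cell precursors. Slc25a28 was at 23.9, 21.9, 22.2, 17.9 and 18.3 FPKM in AngII+E1, at 23.6, 19.7, 27.4, 28.4 and 23.9 in AngII and at 17.1, 21.8, 23.1, 22.7 and 16.1 in Sham libraries. Slc25a37 was at 8.07, 5.96, 5.56, 9.19 and 8.34 FPKM in AngII+E1, at 5.35, 6.79, 18.7, 7.27 and 18.0 in AngII and at 6.05, 3.65, 3.67, 6.499 and 4.70 in Sham libraries. AngII libraries 3 and 5 alone lay above 10 FPKM for Slc25a37. Its log2 difference of AngII from Sham was 0.91 (95% interval 0.28 to 1.54, limma adjusted p = 0.0846). Of 5 red cell markers none passed in any comparison. At an unadjusted limma p under 0.05, 9.85% of all genes were higher in AngII+E1 than in AngII, and 593 of 12603 than in Sham. All 5 markers were among them in both comparisons. Their summed level was 28050 to 78370 FPKM in AngII+E1, 7580 to 44170 in AngII and 5346 to 19670 in Sham libraries, with no marker at 0, and in AngII libraries 3 and 5, both high for Slc25a37, the sums were 36900 and 7580 FPKM.

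Slc25a45 had the largest positive difference of any carrier after angiotensin II, with a log2 value of 0.97 (limma adjusted p = 0.0797). It lay between 1.64 and 2.38 FPKM in AngII+E1 libraries, at 1.67, 2.07, 9.23, 4.21 and 7.91 FPKM in AngII libraries 1 to 5 and between 1.17 and 2.32 FPKM in Sham libraries. The AngII values are high in libraries 3, 4 and 5, the libraries with high lymphocyte sums, and AngII+E1 differed from AngII by -0.83 (limma adjusted p = 0.0978). These libraries also had the highest macrophage sums of their group, 620.0, 199.8 and 305.3 FPKM against 82.8 and 160.8 in AngII libraries 1 and 2. Of 9 lymphocyte markers 8 could be tested and none passed after adjustment in any comparison, with 1 marker at 0 in a Sham library. Slc25a30, a relative of the uncoupling proteins, followed the same libraries, with 3.25, 2.93 and 3.35 FPKM in AngII libraries 3, 4 and 5 against 1.58 and 1.92 in libraries 1 and 2, and AngII+E1 differed from AngII by -0.50 (limma adjusted p = 0.0683). Neither Slc25a45 nor Slc25a30 was called in the main fit or with the lymphocyte list as a covariate, so this covariate changed no call. In AngII+E1 against AngII that fit called 0 genes of the whole table higher and 5 lower. With the brown fat list as a covariate both carriers were called lower there (limma adjusted p = 0.0284 and 0.0377). The part of lymphocytes in these values was not tested beyond the lymphocyte covariate fit, and the part of macrophages was not tested. Slc25a14 and Slc25a27, also relatives of the uncoupling proteins, averaged 2.10 and 1.16 FPKM in AngII+E1, 2.26 and 1.29 in AngII and 1.92 and 0.894 in Sham libraries.

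The other carriers with no settled or a different role did not pass. Slc25a35 averaged 59.7 ± 20.9 FPKM in AngII+E1, 46.9 ± 18.4 in AngII and 77.2 ± 29.8 in Sham libraries. Its exons overlap those of Rangrf on the opposite strand over 1151 of 3677 bases, and the strand setting of the counting is not given in the sources used here. The ratio of Slc25a34 to Slc25a35 was higher in AngII+E1 than in AngII by 1.32 on the log2 scale (exact two-sided permutation p = 0.0397, adjusted p = 0.458 over 21 tests), which did not pass. Slc25a48 had the widest spread within every group, 10.7-fold in AngII+E1, 8.85-fold in AngII and 10.7-fold in Sham libraries. Slc25a46, an outer membrane protein linked to mitochondrial shape, and Slc25a47 overlapped between all groups.

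Libraries of 1 group differed from each other in many carriers at once. The ratio of the highest to the lowest library had a median of 1.77 over the 39 carriers in AngII+E1, 2.19 in AngII and 2.26 in Sham libraries. AngII library 3 was the lowest of its group for 22 carriers and the highest for 5, and AngII library 1 the highest for 20 and the lowest for 10. Sham library 1 was the lowest for 17 carriers and the highest for 8, and Sham library 3 the highest for 17 and the lowest for 12. The carriers thus did not all move together. In AngII+E1, library 2 was the highest for 13 carriers and library 3 for 12, and library 4 was the lowest for 13 and library 5 for 12. These AngII and Sham libraries also stood low or high in the TCA cycle list. Its mean log2 level was 6.75 in AngII library 3 and 8.83 in AngII library 1, and 7.12 in Sham library 1 and 8.92 in Sham library 3. In AngII+E1 it was 8.29 in library 2, 8.52 in library 3, 7.56 in library 4 and 7.63 in library 5. The brown fat list mean was 4.61 in AngII library 3 and 7.41 in AngII library 1, and 5.94 in Sham library 1 and 7.74 in Sham library 3.

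**Figure D4:**
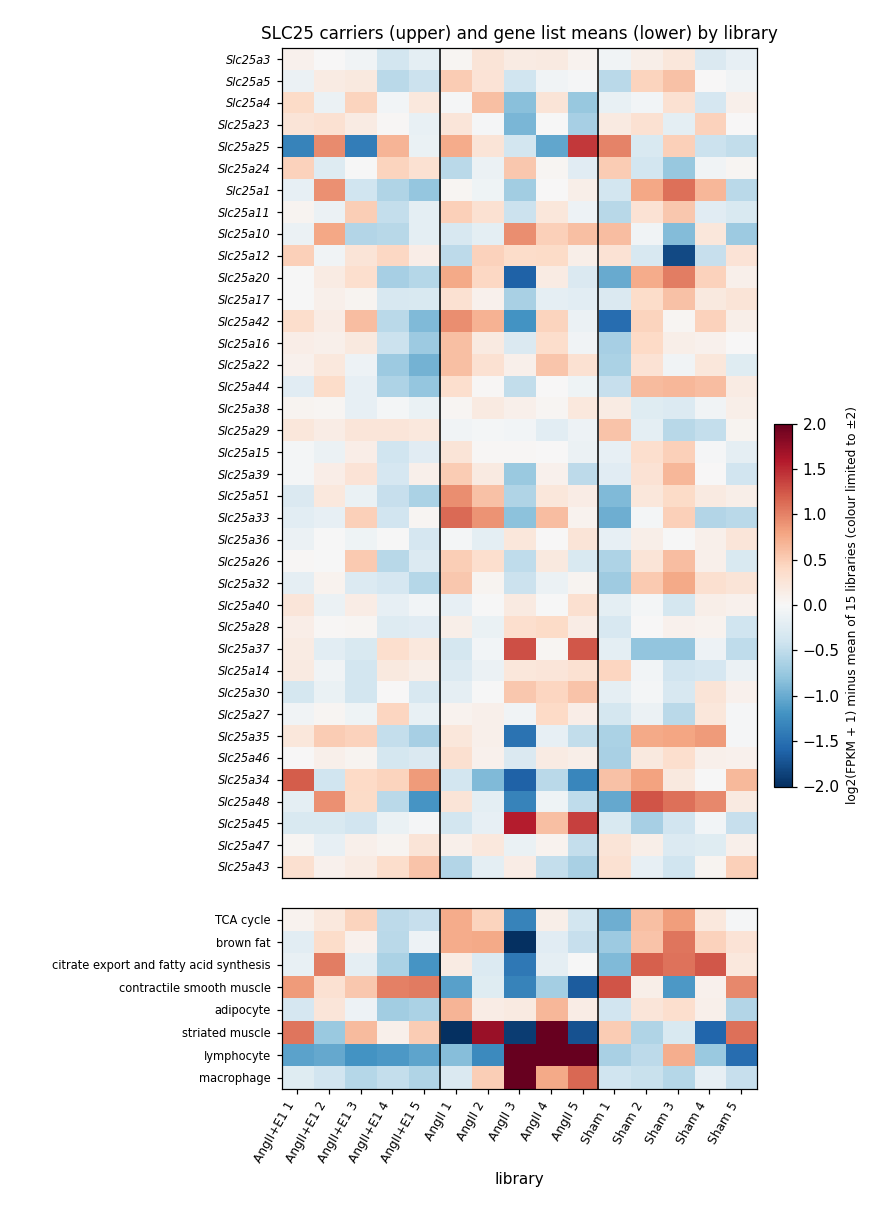
Each cell is the log2(FPKM + 1) of a carrier (upper panel) or the mean of a gene list (lower panel) in 1 library minus its mean over the 15 libraries, with colour limited to ±2, in the order AngII+E1, AngII, Sham. AngII library 3 and Sham library 1 are blue for Slc25a20 and Slc25a42 and for the TCA cycle list, and Slc25a45 is red in AngII libraries 3, 4 and 5.

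Genes around the carriers mostly did not pass. Of SLC25 family genes with other symbols, Ucp2, an uncoupling protein relative common in immune cells, was at 49.5, 53.2, 39.1, 58.5 and 49.4 FPKM in AngII+E1, at 61.5, 74.8, 394.4, 153.2 and 279.8 in AngII and at 56.9, 32.9, 35.4, 52.9 and 34.9 in Sham libraries. AngII libraries 3, 4 and 5 were again the high ones, although all AngII libraries lay above all Sham libraries. Ucp2 was higher in AngII than in Sham with a log2 difference of 1.84 (limma adjusted p = 0.032) and lower in AngII+E1 than in AngII, at -1.59 (limma adjusted p = 0.0326). Ucp1, the uncoupling protein of brown fat, averaged 1422 ± 438.2 FPKM in AngII+E1, 1658 ± 1281 in AngII and 2297 ± 1280 in Sham libraries (SD, n = 5 each) and did not pass, nor did Ucp3, Mtch1 and Mtch2.

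None of 11 genes of carrier import, 17 of the TCA cycle, 6 of the NADH shuttles, 5 of the carnitine shuttle and 8 regulators of mitochondrial biogenesis passed in any comparison by limma. At an unadjusted p under 0.05 they gave 2 genes in AngII against Sham, 2 in AngII+E1 against AngII and 0 in AngII+E1 against Sham. Of 18 other mitochondrial transporters, Slc8b1, the sodium/calcium exchanger, and Sfxn2 were higher in AngII than in Sham with log2 differences of 1.06 and 0.54 (limma adjusted p = 0.0336 and 0.0196), and Sfxn1, a serine carrier, was lower in AngII+E1 than in AngII, at -0.63 (limma adjusted p = 0.0439). Slc8b1 was at 14.8, 8.56 and 12.2 FPKM in AngII libraries 3, 4 and 5 and at 5.56 and 5.11 in libraries 1 and 2. Of 9 genes of citrate export and fatty acid synthesis, the partners of Slc25a1, Scd2 was lower in AngII than in Sham with a log2 difference of -1.56 (limma adjusted p = 0.03).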

How the data were processed

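RNA from 15 mouse aorta libraries was prepared with a SMARTer mRNA kit, per the labels' protocols. The authors deposited 1 value per gene and library, taken here as FPKM made from fragments per gene divided by gene length and library depth, although the deposited table names no unit. The values have decimals and unequal column sums, so they are neither counts nor per-million values over the genes listed; scaling to gene length was assumed. Low values showed no steps of a single read: the commonest ratio between 2 libraries (bins of 0.01 on the log2 scale) held 0.71% to 1.62% of low genes over 105 pairs. The build is mm10, per the submitters' processing notes; what aligned and counted the reads, with which annotation and strand setting, is not given in the sources used here.

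Genes at 1 FPKM or more in at least 5 libraries (12603 of 34714) were fitted as log2(FPKM + 1) with limma-trend (limma 3.58.1, R 4.3.3), 1 mean per group over all 15 libraries. The 3 contrasts were tested two-sided with Benjamini-Hochberg adjustment over all genes, at a threshold of 0.05. Fold changes of low genes are understated on this scale. Ratios of 7 pairs of related carriers were compared by exact permutation (SciPy 1.17.1, Python 3.11.15) and adjusted over 21 tests. Gene coordinates, exon overlaps and upstream sequences come from RefSeq GRCm38.p6 and GENCODE annotation of the same build.

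The members, role groups, lists and rules were chosen with earlier results of these data known. Every library's value is given for called members and for Slc25a1, Slc25a3, Slc25a4, Slc25a5, Slc25a11, Slc25a12, Slc25a13, Slc25a20, Slc25a28 and Slc25a37; other members are given by range or mean, and called genes of the lists up to 4 per list. Single values of Slc25a29, Slc25a30, Slc25a45, Ucp2 and Slc8b1 were chosen after they were seen. One member is counted in every total but not reported here. The fit was tested on simulated data. Alternatives were an added 0.1, no filter, fits of only the groups compared, a replicate block, rescaling, 5 marker list covariates, and libraries left out.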

Additional observations from a re-analysis of the deposited data

Results flagged for a closer look

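In groups of 5 libraries, a highest or lowest library was marked when its gap to the next library exceeded 0.71 of the group's range. Among 117 combinations of carrier and group 3 were marked, where chance alone at 1 in 20 gives 5.85. Slc25a1, the citrate carrier, was at 531.6 FPKM in AngII+E1 library 2, and the other AngII+E1 libraries lay between 164.9 and 250.9. Slc25a10, the dicarboxylate carrier, was at 22.7 FPKM in the same library, and the others lay between 8.22 and 11.7. Slc25a27, a relative of the uncoupling proteins, was at 1.82 FPKM in AngII+E1 library 4, and the others lay between 0.887 and 1.14. AngII+E1 library 2 also had the highest mean log2 level of its group for the 9 genes of citrate export and fatty acid synthesis, 8.61 against 6.41 to 7.44 in the other AngII+E1 libraries.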

How the results depend on the processing

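An added value of 0.1 changed no member's call. The numbers of carriers called (higher and lower; 0 and 1 as reported for AngII against Sham, 2 and 0 for AngII+E1 against AngII) moved as follows. For AngII against Sham, the lower count was 0 with no filter (Slc25a34 at limma adjusted p = 0.0555), with only the 2 groups compared (0.0561), without AngII libraries 3, 4 and 5 together, and with a smooth muscle or lymphocyte covariate. With an adipocyte covariate 1 was higher and 5 were lower (Slc25a1, Slc25a34, Slc25a35, Slc25a44 and Slc25a48), with a brown fat covariate 2 were higher (Slc25a33 and Slc25a51), and with a smooth muscle covariate 1 was higher (Slc25a12). For AngII+E1 against AngII, the higher count was 1 with no filter, a replicate block or a striated muscle covariate (Slc25a43 lost), 0 with adipocyte, smooth muscle or lymphocyte covariates or without the 3 AngII libraries, and 3 with only the 2 groups compared (Slc25a29 gained). In these settings with a count of 0, no gene of the whole table was called higher. The lower count was 5 with the brown fat covariate (Slc25a22, Slc25a30, Slc25a33, Slc25a45 and Slc25a51). The cause was not tested. Leaving out 1 library in turn gave 0 to 2 higher and 0 to 1 lower for AngII against Sham, and 0 to 2 higher and 0 to 2 lower for AngII+E1 against AngII. Slc25a37 and Slc25a45 were gained as higher, and Slc25a30 and Slc25a45 as lower, without AngII library 1 or 2. AngII+E1 against Sham had 0 calls among the carriers in all 26 alternatives. No called carrier changed direction in any alternative. Of all 117 results, called or not, 13 that were not called changed sign under rescaling and 34 did with the smooth muscle covariate.

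Over all genes, the 26 alternatives gave 20 to 1378 higher and 2 to 555 lower in AngII against Sham, and 0 to 891 higher and 1 to 1454 lower in AngII+E1 against AngII, so the background share depends on the setting. Deviations of same-numbered libraries correlated at -0.414 to 0.102 in AngII against Sham, -0.34 to 0.0319 in AngII+E1 against AngII and 0.0238 to 0.521 in AngII+E1 against Sham. Not every pair of any comparison was over 0.1, so the numbers are not taken as pairs. With the replicate block the all-gene counts were 72 and 37, and 269 and 164, in these comparisons, and Slc25a34 had limma adjusted p = 0.0481 and 0.0357. For the ratio of Slc25a34 to Slc25a35, leaving out 1 library, chosen after seeing the data, gave log2 differences of 1.05 to 1.69 in AngII+E1 against AngII. Read depth is unknown, and values near 1 FPKM, such as those of Slc25a43 and Slc25a27, carry an unknown counting error.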
